A study of Mus musculus with 12 samples.

Results

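The comparison described here is the loss of Tfeb under DSS injury on Day 4, as seen in RNA-seq of mouse colonic epithelial cells. Tfeb ΔIEC animals carry floxed Tfeb alleles and Cre recombinase driven by the villin promoter, so that Tfeb is deleted in the intestinal epithelium and remains in other cells. Their controls, Tfeb flox/flox animals, carry the floxed alleles without Cre and are labelled wild type. All 4 animals were C57/BL6 mice of 12 weeks, 2 of each genotype, were given dextran sodium sulfate at 2.5% according to the labels, and were sampled on Day 4. The methods text gives a lower concentration, and which of them holds was not settled. The genes were chosen from the Day 4 table alone: 4695 of its 47632 genes reached 5 FPKM (a fragment count divided by transcript length and by sequencing depth) in 1 genotype or both, and 4688 of these had an annotated transcript length. The deposited table holds 1 FPKM per genotype, made from both animals. Without a value per animal the spread between animals could not be computed here, no test was made, and every value below describes these pooled libraries. The Day 0 animals, set beside them below, were 12 weeks old in 1 animal and 10 weeks in the other of each genotype, so that age differs between the days as well as treatment. The labels list DSS at 2.5% for the Day 0 animals too, and that they were untreated is taken from the authors' text. A pair of values is always the FPKM in Tfeb flox/flox followed by the FPKM in Tfeb ΔIEC.

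TFEB is a basic helix-loop-helix transcription factor of the MiT family. When nutrients are plentiful it is phosphorylated at the lysosome and kept in the cytosol, and under starvation or lysosomal stress it enters the nucleus, binds palindromic E-box sequences called CLEAR elements, and activates genes of lysosomal hydrolases, the proton pump that acidifies the lysosome, and autophagy. DSS is a sulfated polysaccharide that injures the colonic epithelium from the lumen. That epithelium is mostly made of colonocytes, which absorb water, salt and short-chain fatty acids and burn butyrate in their mitochondria, and of goblet cells, which secrete the mucus layer.

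Tfeb itself, chr17:47737030-47792419 in mm10, stood at 1.08 FPKM in the controls and was listed at 0 without epithelial Tfeb, against 0.901 and 0.185 on Day 0 (untreated). It was below the minimum of 5 FPKM and is therefore not among the genes compared. Of its relatives, Tfe3 was at 1.56 and 3.61, and Mitf and Tfec were listed at 0 in both genotypes. General epithelial markers were all present: 20 of 20 passed the minimum, led by Lgals4 (16806 and 9196), Krt19 (5453 and 5429.9) and Epcam (1202 and 1803). Of 25 markers of mature colonocytes 22 passed, and the summed FPKM of all 25 was 102670 and 63340. Of 49 immune markers 7 passed and 25 and 17 were listed at 0. The summed immune FPKM was 368 and 219, and Ptprc, the pan-leukocyte marker, was at 0.362 and 0.7901. Of 31 stromal, endothelial, glial and muscle markers 1 passed, and Col1a1 and Col3a1 were listed at 0 in both genotypes. The Y-linked genes Ddx3y, Eif2s3y, Kdm5d and Uty were listed at 0 in Tfeb flox/flox and lay between 0.121 and 1.37 FPKM in Tfeb ΔIEC, while Xist was at 1.03 and 2.17. The methods text describes sex-matched littermates for the DSS experiments. The labels used here give no sex, and the part of sex in the results was not tested. In RNA from a cell suspension, fewer cells of a type and less RNA per cell cannot be told apart.

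The genes at the minimum itself were Cox15 (1.67 and 5.001) just inside it and Rwdd1 (4.999 and 2.76) just outside. The Day 11 table was not used as a second set of animals. Among the same genes, 97.6% of the Tfeb flox/flox values and 97.2% of the Tfeb ΔIEC values lay within 0.5 log2 units of those of Day 4, and 185 of 4615 (4.01%) and 97 of 4477 (2.17%) were the same number. Between Day 0 and Day 4 no value was the same, and 29.1% and 52.3% lay within 0.5. Only the Day 0 table is therefore set beside Day 4. Whether the Day 4 and Day 11 tables hold separate libraries is not settled by the values or the sources used here, so that the Day 4 values are tied to the Day 4 animals by the name of their table alone. Whether the tables of different days share a scaling is likewise not given, so levels of different days are set side by side and only the difference between genotypes is compared.

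The difference between the genotypes depended strongly on how long a transcript was. Differences are given as log2((Tfeb ΔIEC FPKM + 1)/(Tfeb flox/flox FPKM + 1)), which understates the change of low genes. Their median over the 4688 genes was -0.16 with quartiles of -1.55 and 1.14. In the 10% of genes with the shortest transcripts (38 to 437 nt) the median was -2.59, and 61.2% of them were at least 4-fold lower in Tfeb ΔIEC. In the 10% with transcripts of 2292.5 to 2852.5 nt the median was 1.06, and 24.3% were at least 4-fold higher. Across genes, which are not independent replicates and share the same pooled libraries, the Spearman correlation of the difference with length was 0.522. The same genes on Day 0 gave 0.459, with medians of -0.58 and 0.37 in those length classes. Of the 4688 genes, 586 (12.5%) were at least 4-fold higher and 841 (17.9%) at least 4-fold lower in Tfeb ΔIEC, against 1.51% and 3.35% of them on Day 0. The genes were chosen on Day 4 values, which favours differences of that day. Among the 4853 genes chosen by the same minimum on Day 0, a choice made after seeing the data, 11.4% and 13% were past the fold on Day 4 and 2.82% and 4.92% on Day 0. These shares also depend on scaling: the summed FPKM of the Tfeb ΔIEC library was lower (820344 against 1464720), and dividing each library by its sum would add 0.84 to every unadjusted difference.

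**Figure D1:**
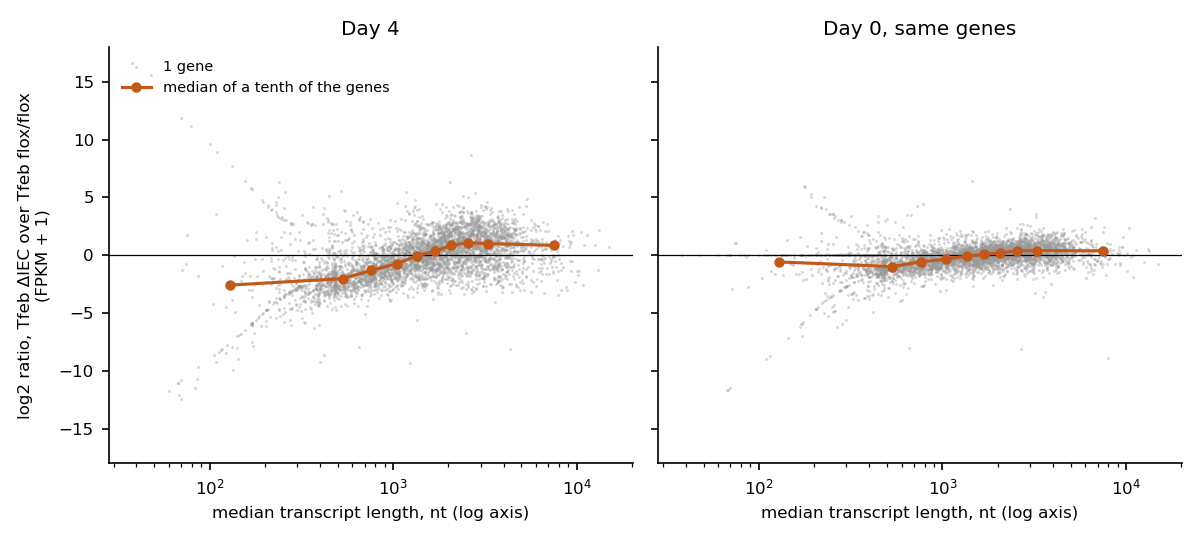
Log2 difference between Tfeb ΔIEC and Tfeb flox/flox (vertical axis) against median transcript length in nt (log axis) for the 4688 genes on Day 4 (left) and the same genes on Day 0 (right), with 1 grey point per gene. The joined points are the medians of 10 length classes of equal size, which on Day 4 lie at -2.59 for the shortest transcripts and at 1.06 for those of 2292.5 to 2852.5 nt, and on Day 0 at -0.58 and 0.37.

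For this reason a second, length-adjusted difference was computed for every gene: its log2 difference minus the median of the roughly 300 genes nearest to it in length, which also cancels the scaling. Adjusted differences had a median of -0.01 with quartiles of -0.88 and 0.89, and no longer followed length (Spearman correlation -0.059, against -0.261 with GC content). On this scale 386 genes (8.23%) were at least 4-fold higher in Tfeb ΔIEC and 429 (9.15%) at least 4-fold lower. Of the 841 genes lower before adjustment 256 were still past the fold, and of the 586 higher ones 253. Another 133 genes were past it in the higher direction and 173 in the lower direction on the adjusted scale alone. The higher genes had a median FPKM of 4.31 and 27.2, and 74 of them were listed at 0 in Tfeb flox/flox. The lower genes had 23.03 and 2.43, and 83 were listed at 0 in Tfeb ΔIEC. A length is an annotation, not a measurement: with the shortest and with the longest annotated transcript of each gene, 310 of the 386 (80.3%) and 305 of the 429 (71.1%) were past the fold both times. On Day 0 the same genes had 1.9% and 2.26% past the fold in these directions, and the genes chosen on Day 0 had 7.69% and 6.28% on Day 4 and 2.84% and 3.4% on Day 0. In what follows, a list's count of genes past 4-fold is on the adjusted scale, and those shares of 8.23% and 9.15% are its background. Most lists consist of protein-coding genes, of which 169 of 3702 were past the fold higher and 345 lower. Processed pseudogenes made up 184 of the 386 higher genes, so 8.23% overstates the higher background of such lists. An adjusted difference of 1 stands for a ratio of Tfeb ΔIEC to Tfeb flox/flox that is 2-fold higher than the median ratio of genes of similar length, and can belong to a gene that is lower in Tfeb ΔIEC as measured. Of the 4688 genes 928 (19.8%) reached the minimum of 5 FPKM only in Tfeb flox/flox and 1045 (22.3%) only in Tfeb ΔIEC. Such genes were bound to differ in that direction as measured, so the counts and medians of lists describe the genes that passed and support no more.

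The lysosome was first examined, as the compartment whose genes TFEB is known for. The core CLEAR sequence, GTCACGTG on either strand, which contains the shorter E-box CACGTG, was searched from 250 bases before to 50 bases after the start of each gene in the promoter table of RefSeq (GRCm38.p6). It occurred in 689 of 27025 genes (2.549%), in 163 of the 2892 compared genes with a promoter in the table (5.636%), in 3 of 16 lysosomal hydrolase genes (18.75%), in 8 of 22 genes for lysosomal membrane proteins and pump subunits (36.36%) and in 2 of 19 autophagy genes (10.53%). The 5 windows of 60 bases printed here are from lysosomal genes with this sequence outside annotated exons, and their values lie in both directions. Clcn7 and Glb1 reached the minimum only in Tfeb ΔIEC and Igf2r only in Tfeb flox/flox. The direction of these genes as measured was therefore set by the choice of genes. The element is in capitals, and each window reads 5′ to 3′ on the strand of the gene.
Clcn7, chr17:25133331-25133390, plus strand: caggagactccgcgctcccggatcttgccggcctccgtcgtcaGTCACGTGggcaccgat
Glb1, chr9:114401002-114401061, plus strand: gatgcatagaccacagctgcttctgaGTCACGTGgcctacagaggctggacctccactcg
Atp6v0b, chr4:117887334-117887393, minus strand: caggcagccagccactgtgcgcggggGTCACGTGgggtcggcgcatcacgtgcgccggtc
Lamp1, chr8:13159101-13159160, plus strand: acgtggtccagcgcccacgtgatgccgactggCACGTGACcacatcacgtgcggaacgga
Igf2r, chr17:12769707-12769766, minus strand: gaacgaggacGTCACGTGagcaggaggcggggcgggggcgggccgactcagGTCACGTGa

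Clcn7, the chloride-proton exchanger of the lysosome, was at 2.06 and 12.2, an adjusted difference of 1.04. Glb1, the lysosomal β-galactosidase, was at 2.23 and 8.87 (adjusted 0.64). Atp6v0b, a membrane subunit of the proton pump, was at 63.1 and 52.03, which is lower in Tfeb ΔIEC as measured and 0.60 after adjustment for its length of 967.5 nt. Lamp1, a major glycoprotein of the lysosomal membrane, had nearly equal values of 17.2 and 17.1 (adjusted -0.94), and Igf2r, the receptor that carries newly made hydrolases to the lysosome, was at 12.5 and 0.706 (adjusted -3.68), the lowest of the membrane list. Over all compared genes with a promoter, the 163 with GTCACGTG had a median adjusted difference of -0.03 (7 past 4-fold higher and 17 lower), and the 2729 without it had -0.10 (121 and 252).

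Lysosomal hydrolases had a higher median than genes of their length. Of the 23 compared, 7 reached the minimum only in Tfeb ΔIEC and 0 only in Tfeb flox/flox, so the direction of those 7 as measured was set by the choice of genes. Their 23 genes had a median adjusted difference of 1.01 (quartiles -0.20 and 1.56), against -0.01 over all genes, and 16 of 23 were above 0, against 49.5% of all genes. Over the length-adjusted settings tried the median ran from 0.39, at a minimum of 1 FPKM, to 1.25. Past 4-fold higher was 1 of 23, against 8.23% of all genes and 169 of 3702 protein-coding genes, and 0 were past it lower. That gene was Lipa, the acid lipase that releases cholesterol from lipoproteins, at 0.883 and 18.2. Next came Scpep1, a serine carboxypeptidase (0.601 and 10.3), and among those after it was Asah1, acid ceramidase (6.62 and 59.7). The cathepsins spread over the range. Cathepsin B (Ctsb) was at 13.3 and 73.9, cathepsin D (Ctsd) at 25.7 and 91.4 and cathepsin C (Ctsc) at 2.11 and 20.1, all higher in Tfeb ΔIEC, while cathepsin L (Ctsl) at 11.1 and 9.14 and cathepsin Z (Ctsz) at 41.7 and 37.7 were slightly lower. Psap, the precursor of the saposins that help hydrolases reach their lipids, was at 18.3 and 95.3. The most abundant hydrolases, Fuca1 (α-fucosidase, 178 and 221), Ctss (cathepsin S, 66.1 and 159.8) and Acp5 (a tartrate-resistant phosphatase, 128 and 89.8), had adjusted differences of -0.72, 1.24 and -0.47. On Day 0 the median of the hydrolases was 0.03.

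The membrane proteins and pump subunits of the lysosome had no such common shift. The 29 genes had a median of 0.02 with quartiles of -0.50 and 1.03. The proton pump consists of a cytosolic V1 sector, which splits ATP, and a membrane V0 sector, which carries the protons. Atp6v0a2, a large V0 subunit that directs pumps to the Golgi, was at 4.72 and 166 and was the only one of the list past 4-fold higher. Atp6ap2, an accessory protein, was at 4.06 and 35.3, and the V1 subunits Atp6v1a and Atp6v1c1 were at 1.05 and 6.08 and at 0.8497 and 6.54. Other subunits had adjusted differences near 0, among them Atp6v1f (103 and 36.3, adjusted -0.08), Atp6v0d1 (6.39 and 7.21) and Atp6v1b2 (2.72 and 7.88). Lamp2, which takes part in chaperone-mediated autophagy, was at 3.31 and 23.6, in contrast to its near equal partner Lamp1. M6pr, the small mannose 6-phosphate receptor, was at 3.26 and 27.4, in the opposite direction to the large receptor Igf2r. The calcium channel Mcoln1 was at 3.45 and 6.84, and Cd63, a tetraspanin of late endosomes and the most abundant of the list, was at 518 and 223 (adjusted -0.50).

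Autophagy genes were spread around a median of 0.32 (quartiles -0.46 and 0.67, 22 genes). Of the 22, 11 reached the minimum only in Tfeb ΔIEC and 2 only in Tfeb flox/flox. Nbr1, a cargo receptor that brings ubiquitinated proteins to the autophagosome, had the lowest value of all protein-coding genes with transcripts of at least 1000 nt and 20 FPKM. It was at 2601 and 8.21, an adjusted difference of -9.09, against 17.5 and 23.9 on Day 0. The related receptor Sqstm1 (p62) was at 17.5 and 106, Tax1bp1 at 93.2 and 171 and Optn at 4.08 and 5.68, with adjusted differences of 1.70, -0.08 and -0.65. Among the proteins that build the autophagosome, Gabarap was at 248 and 231, Map1lc3b (LC3B) at 11.5 and 15.2, Atg5 at 1.62 and 5.64 and Becn1 at 15.7 and 32.3, with adjusted differences from 0.14 to 0.91. Vmp1, a scramblase of the ER needed for autophagosome formation, was at 1.99 and 17.6. Of 28 genes for MiT factors and their regulators at the lysosome, 8 passed the minimum, with a median of 0.09. Of these 0 were past 4-fold, but 8 genes are too few to set against the shares of 8.23% and 9.15% over all genes. Lamtor1, the anchor of the Ragulator complex, was at 56.7 and 19.98 (adjusted -0.50). Endosomal sorting genes (33, median 0.40) included Vps36, a subunit of the sorting complex ESCRT-II, at 50.9 and 2.099, its partner Snf8 at 9.18 and listed at 0, and Vps35, the core of retromer, at 1.84 and 24.1.

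The most abundant goblet cell products were lower in Tfeb ΔIEC as measured. The 20 goblet genes had a median log2 difference of -1.13 and, after adjustment for length, of -0.51 (quartiles -1.26 and 0.11), against 0.13 on Day 0. The summed FPKM of the whole list of 29 genes was 159832 and 24762. Spink4, a small protease inhibitor and the most abundant mRNA of nuclear genes in Tfeb flox/flox, was at 71372 and 6468, and Tff3, the trefoil peptide that coats the mucosa, at 28759 and 2166. Both transcripts are under 500 nt, and their adjusted differences were -1.21 and -1.67. Zg16, a lectin that binds Gram-positive bacteria in mucus, was at 34794 and 7393 (adjusted -0.54), Agr2, the disulfide isomerase needed to fold mucins, at 12286 and 3436 (adjusted -0.49), and Fcgbp, a large mucus protein of 7927 nt, at 1579 and 145 (adjusted -4.12). On Day 0 Fcgbp was at 484 and listed at 0. Muc2 and Clca1, the gel-forming mucin and a protease that processes it, went the other way: Muc2 was at 645 and 1894 and Clca1 at 432 and 1298. The adjusted value of Muc2, 3.13 with its median annotated length of 711 nt, was 0.84 with its longest transcript of 2032 nt. Of the transcription factors of the secretory lineage, Atoh1 was at 6.26 and 12.7 (adjusted 0.06) and Spdef at 10.3 and 12.4 (adjusted -0.09), while Creb3l1, a factor of the secretory pathway, was at 7.197 and 1.49 (adjusted -2.78).

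Secreted antimicrobial proteins had a median of -2.31 as measured and -0.69 adjusted (20 genes, 2 of them above 0), and 0.10 on Day 0. The lectins Reg3b (24898 and 8824) and Reg3g (19968 and 7976), which are bactericidal, were between 7976 and 24898 FPKM on Day 4 and between 254 and 427 on Day 0 in both genotypes. Their adjusted differences on Day 4 were -0.15 and 0.07. Mptx1, a mucosal pentraxin (22579 and 4299.9), Ang4, an antimicrobial ribonuclease (3526 and 649), Retnlb (3807 and 459) and the peptidoglycan-binding Pglyrp1 (2606 and 434) had adjusted differences between -1.42 and -0.86. Pla2g2a, a secreted phospholipase that attacks bacterial membranes, was the 1 gene of the list past 4-fold, at 116 and 10.2, and was in the opposite direction on Day 0 (4.27 and 111).

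Genes of Paneth cells, which are rare in the normal colon, had a median of -1.94 over 12 genes, of which 9 reached the minimum only in Tfeb flox/flox and 0 only in Tfeb ΔIEC. The α defensin Defa24, a bactericidal peptide of the crypt, was at 1609.7 and 3.18, Defa17 at 297 and 3.61, and Defa26 (79.3) and Defa25 (64.8) were listed at 0 in Tfeb ΔIEC. On Day 0 Defa24 (29.6) and Defa17 (7.63) were likewise listed at 0 in Tfeb ΔIEC, and Defa25 and Defa26 were listed at 0 in both genotypes. The Day 0 median of the list, 0.23, includes such genes, whose adjusted value comes from the length trend alone. The α defensin genes are near-identical copies, so that the reads may have been split between them, and the transcripts of those named lie between 279 and 419 nt. Enteroendocrine hormones were few: Sct (secretin, 373 and 26.5) and Pyy (peptide YY, 209 and 17.8) were lower in Tfeb ΔIEC (adjusted -1.72 and -1.44), Gcg (proglucagon, 16.8 and 33.4) was higher, and the granule protein Chga was at 17.8 and 17.9. Of the 7 compared, 0 were past 4-fold after adjustment. The summed FPKM of the whole list was 653 and 129.

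In the ER, the 28 folding and unfolded protein response genes had the same median of 0.26 on Day 4 (quartiles -0.01 and 1.08) and on Day 0. On Day 4, 2 of 28 were past 4-fold higher and 0 lower, against 8.23% and 9.15% of all genes and 169 and 345 of 3702 protein-coding genes. The median ran from 0.09 to 0.55 over the length-adjusted settings tried. Protein disulfide isomerases ranged from Pdia4 (1.94 and 37.1, adjusted 2.73) and Pdia3 (56.6 and 399.9) to P4hb (129 and 392) and Txndc5 (18.3 and 48.3, adjusted 0.28). The chaperones Hspa5 (BiP, 39.7 and 167), Calr (calreticulin, 46.4 and 206) and Canx (calnexin, 6.804 and 53.5) were all higher in Tfeb ΔIEC, as was Xbp1 (14.6 and 55.4), the transcription factor of that response. Its stress-induced partners did not share this, with Atf4 at 19.3 and 19.97 and Ddit3 (CHOP) at 6.72 and 1.795. On Day 0, Hspa5 was at 88.3 and 156 and Pdia4 at 27.95 and 48.3. Vesicle coats and translocation genes had a median of 0.21 (49 genes), from Sec62, a subunit of the translocon (25.5 and 2.96, adjusted -3.75), to Tmed2, a cargo receptor of coated vesicles (1.397 and 25.2, adjusted 2.62).

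**Figure D2:**
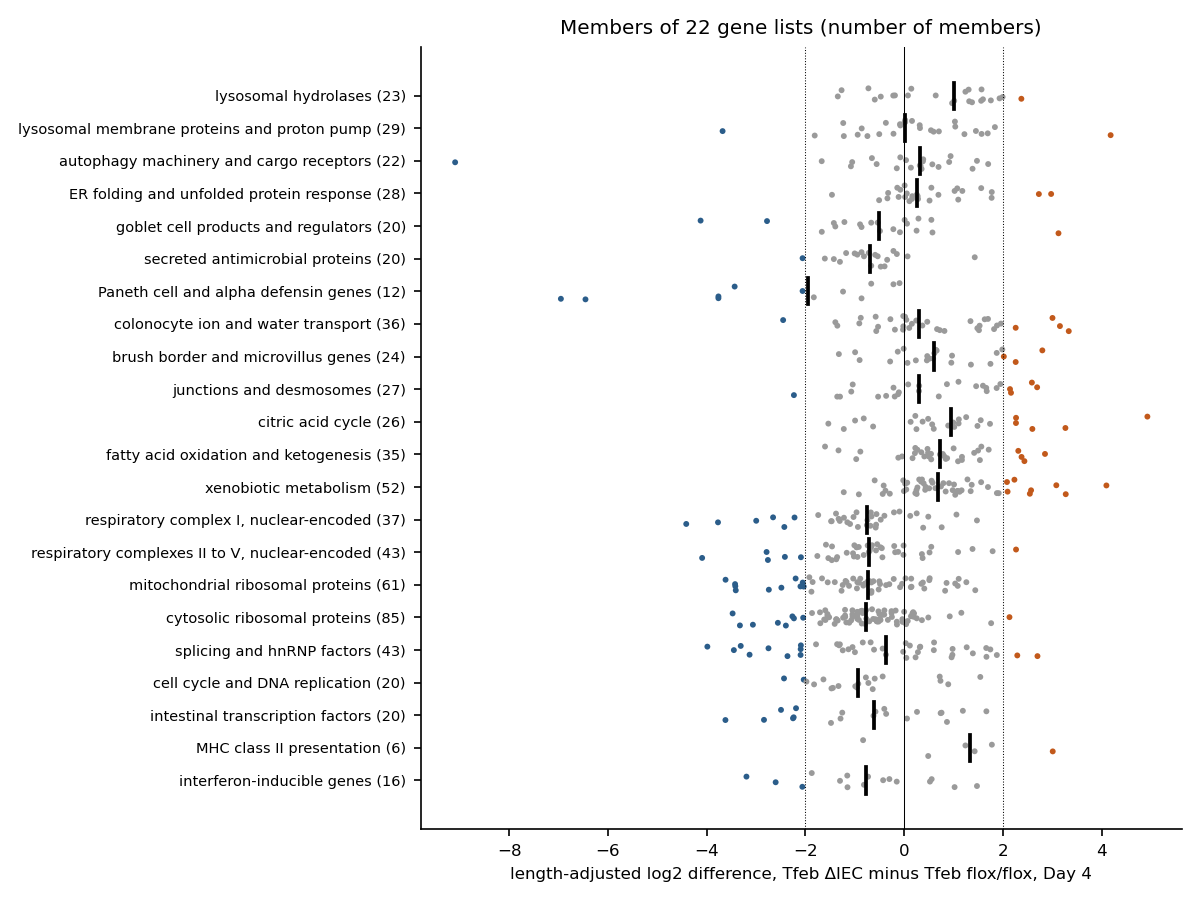
Length-adjusted log2 differences between the genotypes on Day 4 (above 0 is higher in Tfeb ΔIEC), with 1 row per gene list, 1 point per gene, a bar at the list's median, dotted lines at 4-fold and genes past them in colour. Hydrolases (1.01) and citric acid cycle genes (0.94) lie to the right of 0, and Paneth genes (-1.94) and ribosomal proteins (-0.77) to the left.

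Genes of mature colonocyte function were more often above than below genes of their length in Tfeb ΔIEC. Of the transport genes 23 of 36 were above 0 after adjustment, and of the markers 14 of 22, against 49.5% of all genes. Of the 36, 14 reached the minimum only in Tfeb ΔIEC and 1 only in Tfeb flox/flox. Among 36 ion and water transport genes (median 0.31, 4 past 4-fold higher and 1 lower) were Slc6a14, an amino acid carrier (8.002 and 155), Slc16a1, the monocarboxylate carrier MCT1 (1.27 and 33.6), and Clca4a (2.11 and 63.9), which were past the fold. Slc26a3, the chloride-bicarbonate exchanger of the surface colonocyte, was at 33.3 and 271 (adjusted 1.96). Slc26a2, a sulfate carrier, was at 13.02 and 266. The butyrate carrier Slc5a8 was at 4.86 and 29.6 and the water channel Aqp8 at 25.3 and 69.3, the latter against 198 and 30.1 on Day 0. The carbonic anhydrases differed in both directions: Car1, the most abundant of them, was at 24745 and 26614, Car2 at 579.7 and 1413 and Car4 at 232 and 147. Fxyd3, a regulator of the sodium pump, was lower at 192 and 40.6 (adjusted -2.45), and the pump subunit Atp1b1 was at 274 and 224. Of the solute carriers as a family (65 genes, median 0.40), 4 were past 4-fold higher and 3 lower, the lowest being the glucose carrier Slc2a10 (7.09 and 0.824).

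The 22 mature colonocyte markers had a median of 0.28 (5 past 4-fold higher, 0 lower), against -0.49 on Day 0. Krt20, a keratin of differentiated surface cells, was at 101 and 931, Hpgd, which degrades prostaglandins, at 8.14 and 51.8, and Tmigd1, an adhesion protein of the brush border, at 3.94 and 22.7. The abundant short transcripts Guca2a (guanylin, 33249 and 9202) and Lypd8, which keeps flagellated bacteria off the surface (26739.8 and 14731), were lower as measured and at 0.07 and -0.47 adjusted.

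Brush border genes (24, median 0.60, 3 past 4-fold higher and 0 lower) were led by Myo1a, the motor that ties the microvillus core to its membrane (10.8 and 158). Its partners were in the same direction, among them Vil1 (villin, 30.6 and 224), Cdhr2, a cadherin of the microvillus tip (7.23 and 57.4), and Ezr (ezrin, 23.4 and 92.1). Actb and Actg1, the cytoplasmic actins, were at 5571 and 4973 and at 434 and 1663, and Espn, an actin bundler, was lower at 28.8 and 11.9 (adjusted -1.32). Of the 27 junction genes (median 0.30) 4 were past 4-fold higher: the desmosomal cadherin Dsc2 (1.42 and 27.9), the adhesion protein Cdh17 (23.01 and 279), and the tight junction proteins Tjp1 (0.363 and 8.84) and Ocln (0.565 and 13.4). E-cadherin (Cdh1) was at 24.5 and 164. Marveld3, another tight junction protein, was past the fold in the other direction (14.4 and 4.402), and the abundant claudins Cldn3 (1573 and 562) and Cldn7 (1888 and 1787) were at -1.36 and 0.87 adjusted. The membrane mucins Muc13 (177 and 446) and Muc3 (461 and 598) were near the middle, while Fut2, the enzyme that fucosylates the mucosa, was at 3.78 and 44.4 (list median 0.55, 17 genes). The simple keratins Krt8 (1865 and 1481), Krt18 (506 and 600.0) and Krt19 (5453 and 5429.9) differed little as measured.

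Most genes of the citric acid cycle and its supply were above genes of their length in Tfeb ΔIEC. These 26 genes had a median of 0.94 (quartiles 0.23 and 1.53, 21 above 0, 5 past 4-fold higher and 0 lower), against 0.24 on Day 0. Of the 26, 8 reached the minimum only in Tfeb ΔIEC and 0 only in Tfeb flox/flox. Idh1, the cytosolic isocitrate dehydrogenase, was at 4.54 and 105, Dld, the shared subunit of the pyruvate and oxoglutarate dehydrogenases, at 2.37 and 41.6, and Pdha1, the first subunit of pyruvate dehydrogenase, at 3.09 and 44.3. Sdha, the flavoprotein of succinate dehydrogenase, was at 15.7 and 169, whereas its partners Sdhb and Sdhc were at 792 and 336 and at 63.5 and 37.9, lower in Tfeb ΔIEC. Citrate synthase (Cs) was at 18.04 and 112, and Mdh2, the last enzyme of the cycle, was at 289 and 362.

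Fatty acid oxidation and ketogenesis followed the same direction, with a median of 0.72 over 35 genes, 29 of them above 0 and 4 past 4-fold higher. Of the 35, 11 reached the minimum only in Tfeb ΔIEC and 1 only in Tfeb flox/flox. Acsm3, a medium-chain acyl-CoA synthetase, was at 4.18 and 62.8 and Hadh, of the mitochondrial spiral, at 58.1 and 453. The gatekeeper Cpt1a was at 4.21 and 27.6. Etfb, the small subunit of the electron carrier, was lower (1459 and 380.5), while its partner Etfa was at 14.5 and 42.9. Of the 29 cholesterol and lipid synthesis genes (median 0.73), Hmgcs1 (4.74 and 84.3) and Dhcr7 (1.59 and 28.4), an early and a late enzyme of cholesterol synthesis, and Sqle (2.32 and 30.1) in between, were the highest. Of these 29, 14 reached the minimum only in Tfeb ΔIEC and 3 only in Tfeb flox/flox. The sterol-regulated transcription factor Srebf2 was at 2.74 and 6.17. Glycolytic genes had a median of 0.41 (16 genes). The hexokinases differed in opposite directions, with Hk1 at 1.53 and 26.2 and Hk2 at 8.26 and 3.85, and Gapdh, a common reference gene, was at 132 and 116.

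Xenobiotic enzymes had 43 of 52 genes above 0 (median 0.69) and 8 past 4-fold higher, none lower. Of the 52, 13 reached the minimum only in Tfeb ΔIEC and 0 only in Tfeb flox/flox. The 8 past 4-fold were Akr1c14 (0.421 and 56.9), a steroid dehydrogenase, the glucuronosyltransferases Ugt1a7c (14.4 and 281) and Ugt2b34 (15.8 and 161), the carboxylesterases Ces1g (0.7798 and 28.4) and Ces2c (6.03 and 70.8), the cytochromes Cyp2c55 (277 and 2073) and Cyp2c66 (0.332 and 8.17), and the sulfotransferase Sult1a1 (118 and 452). Of the glutathione transferases, the abundant Gsto1 was at 745 and 465 (adjusted -0.38) and Gstm1 at 61.3 and 90.5 (adjusted 1.28). Mgst3, a microsomal member, was at 1224 and 340.4 (adjusted -1.22). The Ugt1a genes share exons, so that their reads may have been split.

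Subunits of the respiratory chain encoded in the nucleus were on the other side of the middle. The 37 subunits of complex I had a median of -2.44 as measured and -0.75 adjusted (quartiles -1.38 and -0.40), with 6 past 4-fold lower and 0 higher. Their Day 0 median was -0.66, nearly the same size. Among the lowest were small accessory subunits, such as Ndufab1, the acyl carrier protein of the complex (22.1 and 1.19), Ndufb4 (23.8 and 0.728) and Ndufb8 (1175 and 221). Of the core subunits that carry the electrons, Ndufv1 (79.05 and 139) and Ndufs1 (14.3 and 40.7) stood above 0 after adjustment and Ndufs7 (786 and 141) and Ndufs8 (374 and 88.3) below. Complexes II to V (43 genes, median -2.32 as measured and -0.72 adjusted) were likewise on both sides of 0. Atp5b, the catalytic β subunit of ATP synthase, was at 9219 and 2223, and Cox4i1, the most abundant subunit, at 20447 and 3954, while Atp5a1, the α subunit, was at 231 and 1272. Atp5g1, 1 of 3 genes for the same ring subunit, was at 2142 and 269.5 (adjusted -4.09, and -1.64 with its shortest transcript), and its homologues Atp5g2 and Atp5g3 were at 39.7 and 2.83 and at 11924 and 1467 (-1.47 and -1.46).

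**Figure D3:**
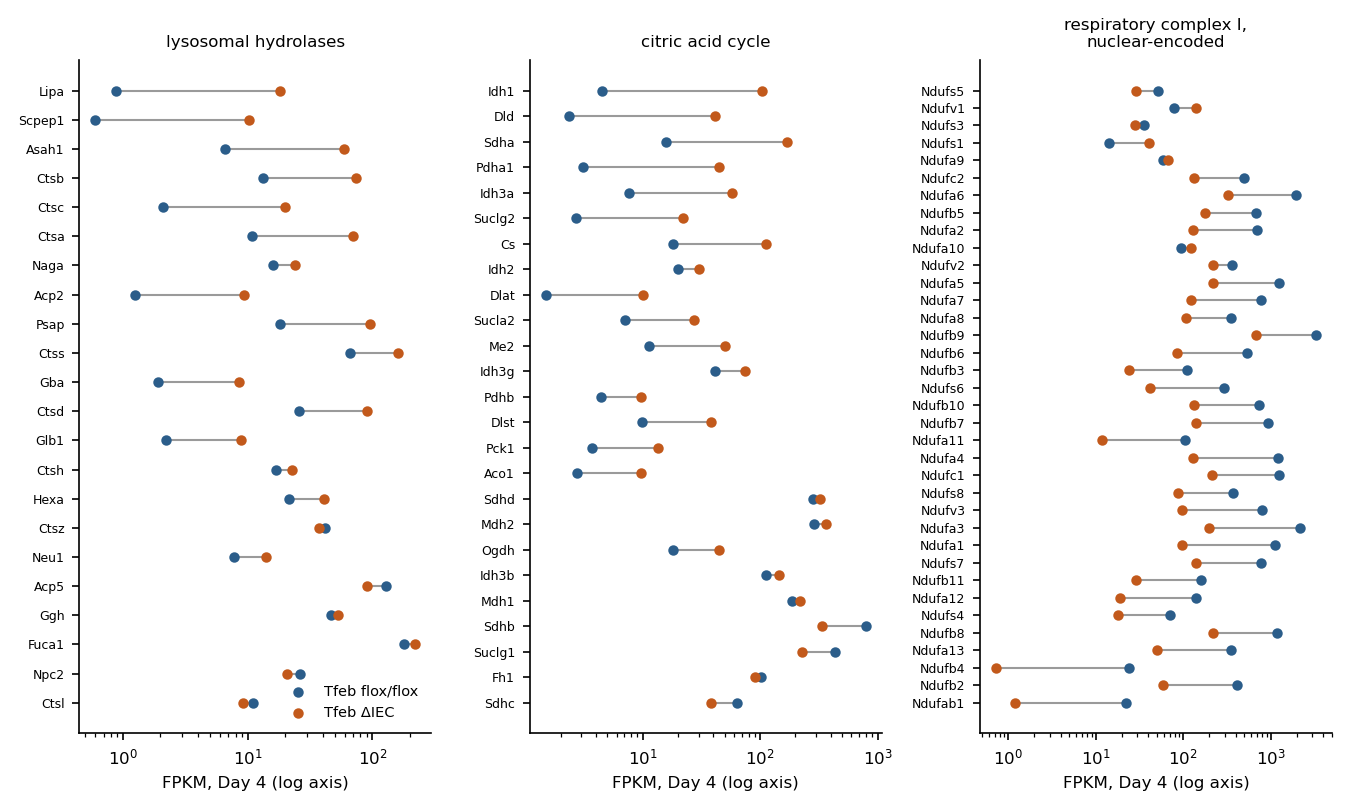
FPKM of each genotype on Day 4, on a log axis, for genes of 3 lists (lysosomal hydrolases, citric acid cycle, nuclear-encoded complex I), ordered within a list by length-adjusted difference, with a line joining the 2 pooled values of a gene. Most hydrolases and citric acid cycle genes, such as Lipa (0.883 and 18.2) and Idh1 (4.54 and 105), are higher in Tfeb ΔIEC, and most complex I genes, such as Ndufb4 (23.8 and 0.728), are lower.

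The 13 mRNAs of the mitochondrial genome itself had a median of 0.99 adjusted, the opposite sign, and of 0.08 as measured. The most abundant were higher as measured, mt-Co1 at 8978 and 16844, mt-Cytb at 7470 and 11276 and mt-Nd1 at 12532 and 18859.7, while mt-Co3 (111 and 49.9), mt-Co2 (21.5 and 10.5) and mt-Nd3 (34.8 and 10.7) were lower. All mitochondrial genes together held 10.7% of the summed FPKM in the controls and 20.3% in Tfeb ΔIEC. When GC content was adjusted for along with length, the median of these mRNAs was -0.30, so their direction depends on that choice. The 61 genes for proteins of the mitochondrial ribosome were at -0.74 in the median, with 10 past 4-fold lower and 0 higher, among them Mrps16 (35.2 and 6.18), Mrpl57 (26.9 and 4.11) and the abundant Mrpl17 (199 and 72.2).

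The 85 cytosolic ribosomal proteins had a median of -2.25 as measured, with 54 of them at least 4-fold lower in Tfeb ΔIEC. After adjustment for length the median was -0.77 (quartiles -1.35 and -0.17), with 8 past the fold lower and 1 higher, and -0.25 on Day 0. The most abundant, Rps27 (9542 and 1019.8) and Rps14 (5342 and 808), had adjusted differences of -0.63 and -1.05. Ribosomal proteins have many processed pseudogenes that can take up their reads. Translation factors (43 genes, median 0.40) spread in both directions. Eef2, the elongation factor that moves the ribosome, was at 49.9 and 741 and Eif4b, a helicase cofactor, at 1.13 and 20.6. Pabpc1, the poly(A)-binding protein, was at 1153 and 162 and Eif5b, which joins the ribosomal subunits, at 5.41 and 0.476. Eef1a1, the most abundant factor, was at 666 and 2524.

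Splicing factors (43 genes, median -0.37 adjusted and 0.09 as measured) were similarly divided, with 9 past 4-fold lower and 2 higher. The lower ones included the serine- and arginine-rich proteins Srrm2 (56.3 and 7.46), Srrm1 (23.7 and 10.3) and Son (12.004 and 3.903), together with Rbm39 (111 and 13.6), Acin1 (19.03 and 3.08) and the hnRNP genes Hnrnpl (31.8 and 6.06), Hnrnpab (23.2 and 5.399) and Hnrnpd (11.1 and 3.27). The higher ones were Hnrnpa1 (0.367 and 7.89) and Hnrnpr, listed at 0 and at 12.6. Of 8 chromatin regulators, 4 of which reached the minimum only in Tfeb flox/flox, 3 were past 4-fold lower, the remodelling ATPases Chd4 (19.8 and 1.16) and Smarca2 (5.77 and 0.797) and the acetyltransferase Crebbp (5.54 and 1.52). Of 71 histone genes of the clusters 12 passed the minimum, 9 of them only in Tfeb flox/flox, and their median of -1.77 was -0.44 at a minimum of 1 FPKM. Hist1h2bc, the most abundant, was at 266 and 58.2. Cell cycle genes (20, 0 past the fold higher and 2 lower) had a median of -0.94, which was -0.37 at a minimum of 1 FPKM and -0.33 at 20 FPKM. They included cyclin D1 (Ccnd1, 15.3 and 5.17) and survivin (Birc5, 10.4 and 4.26), both lower in Tfeb ΔIEC, and Cdk4, the kinase partner of cyclin D1, higher (9.72 and 29.5). Ccnd2 was at 1391 and 579.9 on Day 4 and at 188 and 48.2 on Day 0. The proteasome (36 genes, median 0.29) had none past the fold in either direction.

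Transcription factors that keep the intestinal identity were below genes of their length in the median but not as measured. Over 20 genes the adjusted median was -0.60, with 6 past 4-fold lower, 0 higher and 7 above 0, and the median as measured was 0.28, with 2 at least 4-fold higher and 1 lower. Klf5, which drives crypt proliferation, was at 139.6 and 21.5, Sox9, a factor of crypt progenitors, at 5.85 and 1.004, Tcf7l2, the effector of Wnt signals, at 100.2 and 34.3, and the homeobox factors Cdx1 and Hoxb13 at 25.9 and 6.98 and at 57.2 and 22.6. Klf4, a factor of goblet cells and surface cells, was at 9.65 and 3.94. Hnf4a, the factor of absorptive cells, was at 19.98 and 47.1 and Elf3 at 113 and 463. Pparg, which answers to butyrate and fatty acids in colonocytes, was at 6.65 and 35.3. Of the 25 stem cell and Wnt target genes only 4 passed the minimum. Ly6a, a surface marker of regenerating epithelium, was at 2033 and 743 against 69.6 and 25.8 on Day 0, an adjusted difference of -0.42 on Day 4. Among the immediate early genes (11, median -0.59 adjusted and 0.26 as measured) Egr1 was past the fold lower (11.9 and 4.99) and Fos, the most abundant after Cdkn1a, was at 109 and 118.

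Of 25 genes of apoptosis and inflammatory cell death 7 were past 4-fold higher and 3 lower (median 0.21). Gasdermins of the C group, a cluster of neighbouring and similar genes, were all higher, with Gsdmc4 at 283 and 2155, Gsdmc2 at 106 and 1253, Gsdmc3 at 10.04 and 124 and Gsdmc at 2.36 and 42.8. On Day 0 Gsdmc4 was at 269 and 521. Since these copies can share reads, the split between them is uncertain. Gsdmd, the pore former of pyroptosis, was at 49.9 and 73.6 (adjusted -0.01), and the inflammatory caspase Casp1 was at 15.4 and 75.4. Pycard, the adaptor that joins inflammasome sensors to caspase 1, was lower at 3529 and 593 (adjusted -3.58), as were cytochrome c (Cycs, 351 and 100.3) and Birc5.

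The 24 MHC class I genes had a median of 0.32 (quartiles -0.52 and 1.20), against -0.66 on Day 0. As measured, 4 of them were at least 4-fold higher in Tfeb ΔIEC and 0 lower, and 7 reached the minimum only there. The most abundant were H2-K1 at 888 and 1226, H2-D1 at 634 and 777 and B2m at 2305 and 1349. H2-Q2 (29.6 and 133.8) was the only 1 past the fold after adjustment. The immunoproteasome subunits Psmb8 (143 and 57.1), Psmb9 (43.2 and 17.4) and Psmb10 (279.9 and 86.6), which cut peptides for class I, were lower. All 6 class II genes compared but Ifi30 were higher, led by Cd74, the invariant chain (20.5 and 165), and the α and β chains H2-Aa (12.1 and 23.7) and H2-Ab1 (19.7 and 31.1), whereas on Day 0 their list median was -0.99. Epithelium and antigen-presenting cells both express class II. Of the 49 immune markers 25 were listed at 0 in the controls and 17 in Tfeb ΔIEC, and their summed FPKM was 368 and 219. Ly6g (159.9 and 99.03), Igkc (98.8 and 33.1) and Ccl5 (39.5 and 8.63) were the most abundant of these markers. They were lower in Tfeb ΔIEC as measured, with adjusted differences of 1.02, 0.52 and 0. On Day 0 Ly6g was at 1.18 and 4.103. The myeloid gene Fcer1g was at 5.91 and 14.6 (adjusted 2.83), Laptm5 at 1.52 and 3.71 and C1qa at 1.96 and 0.663. The B cell gene Cd79a was listed at 0 in both genotypes. The part of immune cells in the class II values was not tested. Interferon-inducible genes had a median of -0.77 (16 genes, 3 past 4-fold lower and 0 higher), with Xaf1 (18.1 and 1.44), Oas1g (29.4 and 7.82) and Oas1a (34.9 and 13.1) the lowest and Irgm1 (2.57 and 17.7), a GTPase that also serves autophagy, the highest. This median ranged from -1.51 to -0.05 over the length-adjusted settings tried. Of 16 cytokine and receptor genes 2 were past the fold lower, the growth factors Tgfa (6.66 and 1.69) and Hbegf (9.03 and 3.098), and Pigr, which carries IgA to the lumen, was at 475 and 1434.

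Heat shock chaperones (25 genes, median 0.60) had 2 past 4-fold higher and 2 lower. Of the 25, 10 reached the minimum only in Tfeb ΔIEC and 0 only in Tfeb flox/flox. Hsp90ab1 (1793 and 616) and Hsp90aa1 (27.7 and 6.51), the cytosolic HSP90 genes, were those past 4-fold lower. The ring subunits of the chaperonin CCT ran from Cct7 (33.8 and 58.4, adjusted -0.05) to Cct2 (11.3 and 46.1, adjusted 2.11), which was past the fold, as was the co-chaperone Dnaja2 (5.06 and 51.1). Redox genes (27, median -0.20) had 3 past the fold lower, namely Glrx5 (13.9 and 3.53), Gclm (12.6 and 5.18) and Prdx2 (236 and 60.6), and 1 higher, Txnip, the inhibitor of thioredoxin (6.65 and 104). Txn1, thioredoxin itself, was at 4901 and 1073 (adjusted -1.40). Of the 10 selenoproteins and their enzymes in the list, which does not hold Selenof (6807 and 140.1), 3 were past the fold higher and 0 lower, Txnrd3, Sepp1 and Sephs2 (1.23 and 22.1), while the glutathione peroxidases Gpx1 (1152 and 475) and Gpx2 (1637 and 895) were at 0.04 and -0.20 adjusted. Ferritin heavy chain (Fth1) was at 8197 and 3711 and Mt1, a metal-binding protein, at 669 and 101, with adjusted differences of -0.22 and -1.01.

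Among the 1127 protein-coding genes with transcripts of at least 1000 nt that reached 20 FPKM in 1 genotype or both, the 15 highest and the 15 lowest adjusted differences were taken as the leading genes. Txnrd3, a thioredoxin-glutathione reductase, was first: it was listed at 0 in the controls and at 397 in Tfeb ΔIEC. On Day 0 it was the other way round, at 513 and 0.814. Sepp1, the secreted selenium carrier selenoprotein P, was at 53.04 and 4389.6 on Day 4 and at 986 and 1639 on Day 0. Behind them came Pnrc2, an mRNA decay adaptor (1.43 and 55.5), Hemk1, a methyltransferase of release factors (2.58 and 65.3), and Atp6v0a2 of the proton pump. The other higher leaders were Anapc5, a subunit of the anaphase-promoting complex (4.01 and 177), Uqcc1 and Ndufaf5, assembly factors of the respiratory chain (3.27 and 89.4 and 1.99 and 24.1), Akr1c14, the GTPase Rab18 (1.34 and 31.2), the purine enzymes Hprt (8.63 and 139) and Adk (5.47 and 101), Ugdh, which makes UDP-glucuronic acid (10.1 and 367), the G protein subunit Gnai3 (1.05 and 49.5) and the sulfate carrier Slc26a2. Of these 15, 13 had a positive adjusted difference on Day 0, against 444 of the 628 genes above 0 on Day 4 among the 1127 (70.7%).

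The lowest after Nbr1 was Fam134a, of the family of ER-phagy receptors (266 and 1.52 on Day 4, 2.59 and 2.35 on Day 0). Selenof, a selenoprotein of the ER, was at 6807 and 140.1, and Vps36, named above with the endosomal sorting genes, was next. The remaining lower leaders were Wdr89 (514 and 53.6), Ndufab1 of complex I, the ubiquitin-like modifier Ufm1 (29.1 and 2.604), Lars2, the mitochondrial leucyl-tRNA synthetase (3243 and 350.2), Prkag2, a subunit of the energy sensor AMPK (21.6 and 1.97), the mucus protein Fcgbp, Fam221b (71.2 and 6.32), Ccdc85b (21.6 and 1.49), Atp5g1, Pabpc1 and 1110008P14Rik (32.3 and 1.41). Of the 15, 13 had a negative adjusted difference on Day 0, against 394 of the 496 below 0 on Day 4 (79.4%), and Nbr1 (-0.02) and Fam134a (-0.44) were near 0 then. Some of these genes share exon positions with a neighbour, 5 of the 15 highest and 5 of the 15 lowest (33.3% each) against 421 of 1127 (37.4%), and a short annotated transcript of under 500 nt exists for 8 and for 5 of them against 607 of 1127 (53.9%). With the shortest transcript Ufm1 (-1.83) and Atp5g1 (-1.64) were no longer past the fold.

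**Figure D4:**
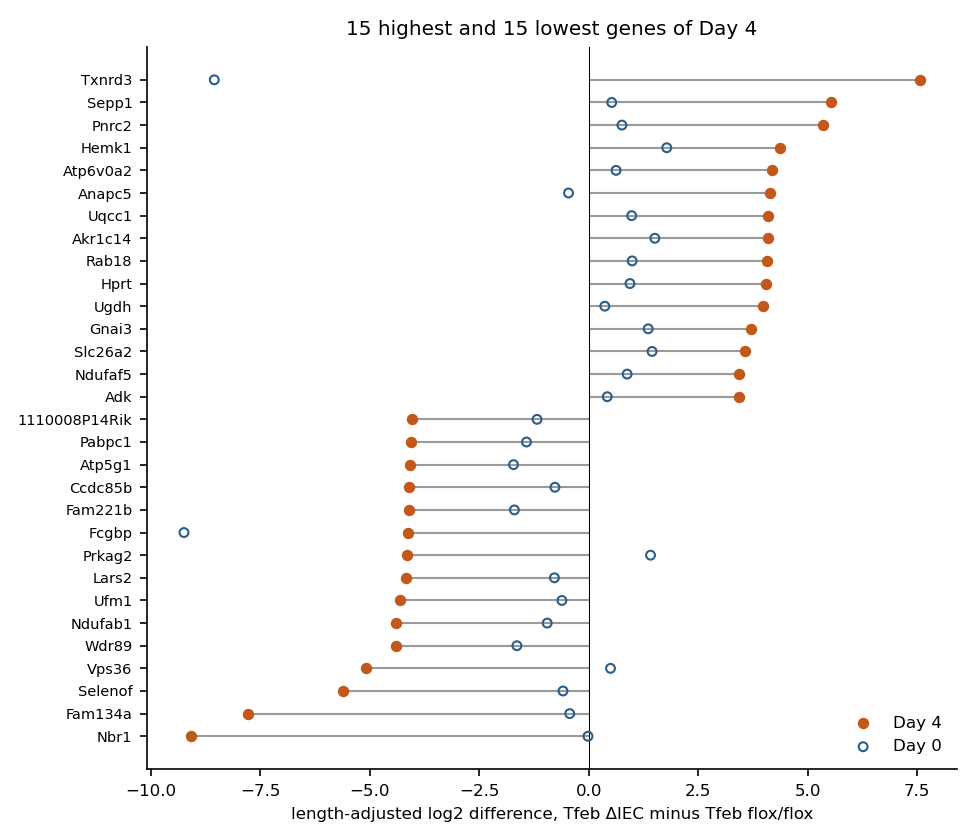
The 15 highest and 15 lowest of 1127 protein-coding genes by length-adjusted log2 difference (above 0 is higher in Tfeb ΔIEC), with the value on Day 4 and that of the same gene on Day 0 side by side. Nbr1 (-9.09) and Txnrd3 (7.57) lie at the ends on Day 4, and Txnrd3 lies at -8.55 on Day 0.

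The same genes on Day 0 give the base for these differences. Per the labels the 2 comparisons share no animals. Over 43 lists of at least 10 genes the adjusted medians ran from -1.94 to 1.01 on Day 4 and from -0.66 to 0.48 on Day 0. On Day 4 the median was farther from 0 in 37 of the 43, and in 30 it had the same sign on both days. Some lists share genes, such as Ang4, so the lists are not independent. Adjusted differences over all genes were also wider on Day 4, with quartiles of -0.88 and 0.89 against -0.47 and 0.45 on Day 0. With genes chosen on Day 0 in place of Day 4 these numbers were 33 and 29 of 43. Of the 386 genes past 4-fold higher 323 (83.7%) had the same sign of adjusted difference on Day 0, and of the 429 lower ones 310 (72.3%). Over all genes the share was 65.5% of the 2319 above 0 on Day 4 and 65.1% of the 2358 below it. The lists with the opposite sign on Day 0 included the goblet genes (0.13 and, on Day 4, -0.51), the colonocyte markers (-0.49 and 0.28) and MHC class I (-0.66 and 0.32). Differences of differences were not tested, since each day has 1 pooled value per genotype.

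**Figure D5:**
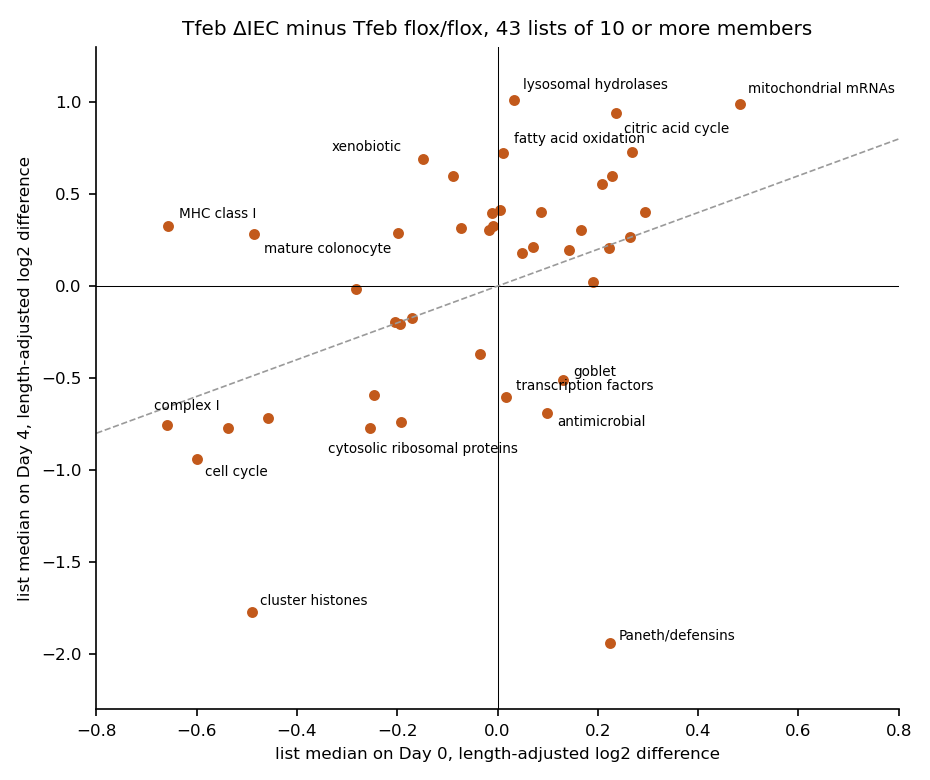
Each point is a gene list of at least 10 genes, with its median length-adjusted log2 difference between the genotypes on Day 0 on the horizontal axis and on Day 4 on the vertical axis, and with a dashed line where both would be equal. The Day 4 medians run from -1.94 (Paneth genes) to 1.01 (hydrolases) and the Day 0 medians from -0.66 to 0.48.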

How the data were processed

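RNA-seq of isolated colonic epithelial cells was used, from 2 animals per genotype on Day 4. The authors treated tissue with EDTA, prepared full-length cDNA with a SmartSeq2 variant and sequenced paired-end reads on a MiSeq. The submitters' processing notes name TopHat2 2.0.14, Cuffdiff 2.1.1 and mm10. The deposited FPKM values are 1 per genotype and day, made by Cuffdiff from both animals, with 1 table per day; how the days were scaled is not given in the sources used here. Read counts are not part of the tables, so depth is unknown and no intervals are given. The authors' fold change, test statistic, p-value, q-value and significance columns were not used.

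From there, log2 ratios with a pseudocount of 1 FPKM were computed for genes with 5 FPKM in either genotype, and the running median of about 300 genes nearest in transcript length was subtracted. Lengths are medians over the basic transcripts of GENCODE M21 (47218 of 47632 genes matched), which also supplied 27 names that had been turned into dates. A gene past 4-fold on this scale was counted, with no test. The 58 lists and the members were chosen with earlier results of these data known. In each list the 3 genes with the highest mean FPKM and the 3 with the largest adjusted difference were to be named, others of a list to account for it, and the 15 leading genes per direction as defined with them. The adjustment was tested on simulated data, which bears on the code and not on the error of real values. Scripts ran under Python 3.11.15 (pandas 2.3.3, numpy 2.4.6, matplotlib 3.10.9, scipy 1.17.1). Alternatives were pseudocounts, filters, folds, sum scaling, protein-coding genes, windows, GC content and transcript choice. The Day 11 table was compared with Day 4 only for shared values. Values of some single genes are not reported here.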

Additional observations from a re-analysis of the deposited data

How the results depend on the processing

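No paired analysis was possible because the tables hold 1 pooled value per genotype, and for the same reason no animal could be left out. Before adjustment, 586 genes were past 4-fold higher and 841 lower in Tfeb ΔIEC. These counts became 232 and 492 with a pseudocount of 5 FPKM, 1285 and 1629 at 2-fold, 168 and 308 at 8-fold, and 1052 and 430 when each genotype was divided by its sum of FPKM, which shifts every difference by 0.84 and so turns the balance of higher and lower genes. The higher count was 335 at a minimum of 20 FPKM, and the lower count 449 among protein-coding genes. After adjustment, sum scaling gave 388 and 454, close to the 386 and 429 reported, which became 228 and 174 with a pseudocount of 5 FPKM, 199 and 257 at a minimum of 20 FPKM, 1047 and 1060 at 2-fold, and 181 and 147 at 8-fold. The higher count was 724 at a minimum of 1 FPKM and 180 among protein-coding genes, and the lower count 653 with a pseudocount of 0.1 FPKM. The choice of the shortest transcript, made after seeing the data, gave 466 and 404. The length trend was 0.379 at a minimum of 1 FPKM, and the shares of values equal on Days 4 and 11 were then 9.97% and 4.82%.

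Of 725 list medians under 1 other setting each (52 lists), 41 had the other sign than reported, in 16 lists, and in 12 lists among the length-adjusted settings. Among them was that of the mitochondrially encoded mRNAs (-0.30 with GC content). Lists with the other sign without adjustment included small-intestinal enterocyte markers (-0.09, against 0.81), selenoproteins (-0.56, against 0.31), the intestinal transcription factors (0.28), immediate early genes (0.26), splicing factors (0.09) and immune markers (-0.69, against 0.52). Over the length-adjusted settings the median ran from -3.52 to -0.98 for Paneth genes, -0.90 to -0.11 for goblet genes, -1.24 to -0.33 for cell cycle genes, -2.76 to -0.44 for histones, 0.10 to 1.08 for colonocyte markers, 0.07 to 0.58 for autophagy genes and -0.18 to 0.36 for the proteasome. Without adjustment the medians were 1.61 for hydrolases, 1.01 for autophagy, 1.08 for ER folding, 1.56 for the citric acid cycle, -2.25 for ribosomal proteins and -2.44 for complex I. Ribosomal proteins were at -1.11 with a pseudocount of 5 FPKM, -1.10 at a minimum of 1 FPKM and -0.95 with the longest transcript, and complex I at -1.31 at a minimum of 1 FPKM and -0.52 among protein-coding genes. Of 420 values of the 30 leading genes, 329 stayed within 1.5-fold, 91 moved and 0 changed sign. The causes were not tested.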

Other observations

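After the mitochondrial ribosomal RNA mt-Rnr2, 2 immunoglobulin J segments had the highest FPKM of Tfeb ΔIEC on Day 4. Igkj5 (38 nt) stood at 102736 in Tfeb ΔIEC and was listed at 0 in the controls, and Ighj2 (48 nt) stood at 48308 and at 0. Of 14 J segments listed, 2 were above 0 in Tfeb ΔIEC and 0 in the controls. On Day 0 these segments were listed at 0 in both genotypes, while the other J segments summed to 187077 in Tfeb ΔIEC and to 0 in the controls. The constant regions, which mark plasma cells, summed to 125 and 58.9 on Day 4, with Igkc at 98.8 and 33.1 and Igha at 23.7 and 19.7. The J segments thus went in the other direction from the constant regions, and since FPKM divides by length, a fragment counts for more in a shorter gene.

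Small nucleolar RNAs and mitochondrial tRNAs were mostly lower in Tfeb ΔIEC. Of 11 snoRNA genes 9 were listed at 0 in Tfeb ΔIEC, with a median adjusted difference of -6.97, and Snord34 was at 5557 and listed at 0. Snord82, 1 of the same class, was at 3757 in Tfeb ΔIEC and listed at 0 in the controls. The 5 mitochondrial tRNA genes had a median of -8.39. Processed pseudogenes, copies of mRNAs that can take up reads of their parent genes, made up 809 of the 4688 genes with a median of 0.54, and 184 of the 386 higher genes were among them against 44 of the 429 lower ones. Among the 3702 protein-coding genes the median was -0.09, with 169 higher and 345 lower.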
